A study of Arabidopsis thaliana with 5 samples.

Results

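The seed coat transcription regulators described here are 7 genes of *Arabidopsis thaliana*: *TT1* (AT1G34790), *TT2* (AT5G35550), *TT8* (AT4G09820), *TT16* (AT5G23260), *TTG1* (AT5G24520), *TTG2* (AT2G37260) and *STK* (AT4G09960). They were taken by identifier from the 33602 genes of the expression table, with no threshold on a measured value but with earlier results of these data known. All 7 were found. Total expression was given in RPKM, which counts reads relative to the length of the gene and the depth of the library, with the reads of both parental alleles together, in 5 RNA-seq libraries of nuclei purified from whole siliques, fruit wall included, at 4 days after pollination (DAP). All libraries were made by INTACT, in which nuclei that carry a biotinylated envelope protein are pulled down with streptavidin, and in both crosses the protein (NTF) and its biotin ligase (BirA) were driven by the *PHE1* promoter in the Col line called INT. In the name of a cross the mother stands first.

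In Col × Ler (2 libraries, numbered 2 and 3), INT plants of the male-sterile *dde2* mutant in Col were pollinated with wild-type Ler. In Ler × Col (3 libraries, numbered 1, 2 and 3), male-sterile *pi-1* mutants in Ler were pollinated with INT. The mother therefore carried the INTACT transgenes in Col × Ler and the father in Ler × Col, and seed coat and endosperm of the Col × Ler seeds both held them. The seed coat of the Ler × Col seeds, a purely maternal tissue, held none. The accession, the mother's sterility mutation and the parent that gave the transgenes change together between the crosses and cannot be told apart. In the titles of the samples the Col × Ler libraries carry the numbers 1 and 2 instead. By the methods of the paper the libraries are biological replicates, and more siliques went into the first replicates than into the others. The same methods left the first replicates out of later steps after an estimate of contamination from the ratio of maternal to paternal reads, although another statement counts 3 Ler × Col replicates. Replicate 1 of Ler × Col is therefore given apart where a result turns on it. The sources do not say whether libraries of the same number were made together.

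Seeds of the *transparent testa* (*tt*) mutants are pale because the seed coat lacks proanthocyanidins, the flavonoid polymers that turn brown when oxidised. The polymers are made in the endothelium, the innermost cell layer of the seed coat, which derives from the integuments of the ovule and so carries only the mother's genome. Their last synthesis steps are switched on by the MBW complex, in which the MYB protein TT2 and the bHLH protein TT8 bind DNA and the WD-repeat protein TTG1 holds them together. TT1, a WIP zinc finger protein, and TT16, a MADS box protein, act in the development of the endothelium, TTG2, a WRKY protein, acts downstream of the complex in seed coat and trichomes, and STK is a MADS box protein of ovule identity. None of the 7 genes is known as a marker of endosperm, the tissue the nuclei were purified for, although *TTG1* is expressed widely in the plant.

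The libraries differed in depth and in how many genes they detected. Low RPKM values fall in steps of 1 read, and the tRNA genes (96.8 to 98.0% of their values within 0.05 reads of a whole number) put read depth at 12.5 M reads for replicate 2 of Col × Ler and to between 20.3 and 28.6 M for the others. Replicate 2 listed 12393 genes at 0 in Col × Ler and 10800 in Ler × Col, against 647 to 3293 in the other 3 libraries. The median RPKM over all genes was 1.91 and 4.47 in replicates 2 and 3 of Col × Ler. It was 8.96, 0.952 and 3.40 in replicates 1, 2 and 3 of Ler × Col. The endosperm markers were present: *PHE1*, a MADS box gene of the endosperm, had 29.7 to 51.0 RPKM, and 12 endosperm markers summed to 395 to 672 RPKM in Col × Ler and 470 to 879 in Ler × Col, with at most 3 of the 12 at 0 in a library (*AGL36* and *AGL90* in both replicate 2 libraries, *IKU2* in that of Ler × Col).
Markers of other tissues were present as well. A set of 12 seed coat markers, none of them among the 7 regulators, summed to 151 to 284 RPKM in Col × Ler and to 145 to 328 in Ler × Col, and only *INO*, an outer integument gene, was at 0 in a library (replicate 2 of Ler × Col). In replicate 2, *RHM2* alone gave 76.2 of the 151 RPKM in Col × Ler and 120 of the 145 in Ler × Col. In replicate 3 it gave 47.4 of the 284 RPKM in Col × Ler and 38.4 of the 328 in Ler × Col. The 6 embryo markers summed to 70.8 to 133 and 28.0 to 120 RPKM, with *PLT2* at 0 in both replicate 2 libraries and *WOX2* in that of Ler × Col, and 6 photosynthesis genes to 1941 to 4170 and 620 to 3410. *WOX8* made up most of the embryo sum in every library but replicate 1 of Ler × Col. It had 65.4 and 119 RPKM in Col × Ler and 24.2, 23.6 and 103 in Ler × Col. In such bulk samples fewer seed coat nuclei and less RNA per nucleus cannot be told apart.

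Each of the 7 regulators was detected in at least 3 of the 5 libraries, and the order of their levels was led by *TT1*. Mean RPKM over the 5 libraries was 53.7 for *TT1*, 16.0 for *TTG1*, 11.5 for *STK*, 11.4 for *TT8*, 6.68 for *TT2*, 3.23 for *TTG2* and 2.31 for *TT16*. No 2 neighbours in this order were separated, since their ranges over libraries overlapped in every case. Within libraries *TT1* lay above *TTG1* in 5 of 5 and *TT8* above *TT2* in 5 of 5, whereas *STK* lay above *TT8* in only 2 of 5. *TT1* was the most abundant of the 7 in every library.

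**Figure D1:**
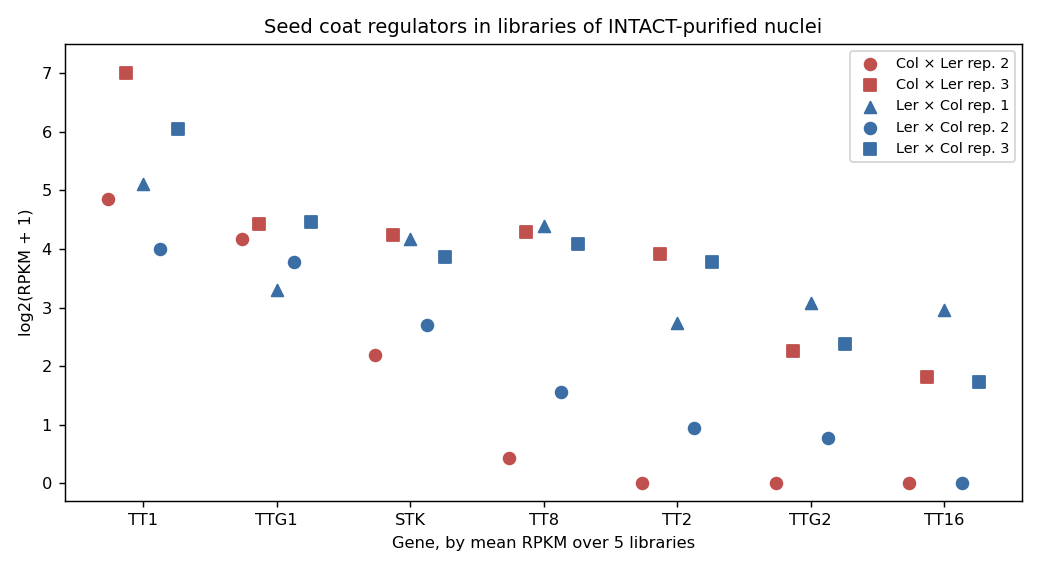
Level of the 7 regulators in each library on the log2(RPKM + 1) scale, 1 point per gene and library, with Col × Ler in red, Ler × Col in blue and the replicate number by shape (triangle 1, circle 2, square 3). For every gene both squares lie above both circles, and the red and blue points overlap.

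Of the MBW complex, *TTG1* was the partner with the steadiest level in RPKM, and *TT2* and *TT8* ranged widely. *TTG1* (chromosome 5, 8370317 to 8372847, TAIR10.1 annotation) had 17.0 and 20.5 RPKM in replicates 2 and 3 of Col × Ler (mean 18.8 ± 2.45, SD, n = 2) and 8.82, 12.7 and 20.9 RPKM in replicates 1, 2 and 3 of Ler × Col (14.1 ± 6.19, SD, n = 3). The ratio of its highest to its lowest library in RPKM was the smallest among the 7, and its lowest was replicate 1 of Ler × Col. By percentile rank among all genes of a library it ranged from 49.5 to 87.3, about as widely as *TT8* (41.0 to 79.1). *TT2* ranged from 18.4 to 70.3.
*TT8* (chromosome 4, 6181881 to 6186523) had 0.348 and 18.6 RPKM in Col × Ler (9.46 ± 12.9, SD, n = 2) and 19.996, 1.96 and 15.9 RPKM in Ler × Col (12.6 ± 9.45, SD, n = 3). The 2 replicate 2 libraries were low and the other 3 lay close together. *TT2* (chromosome 5, 13726743 to 13727961) was listed at 0 and had 14.2 RPKM in Col × Ler, and it had 5.67, 0.911 and 12.7 RPKM in Ler × Col. For *TT2* again both replicate 2 libraries were lowest in RPKM, and replicate 1 of Ler × Col stood between them and the replicate 3 libraries. By percentile rank *TT2* stood lower in replicate 1 of Ler × Col (34.9) than in replicate 2 of that cross (49.6).

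The proportions of the 3 partners therefore differed between libraries. The level of *TTG1* per length was 49.0 times that of *TT8* in replicate 2 of Col × Ler and 6.47 times in replicate 2 of Ler × Col. In the replicate 3 libraries it was 1.10 and 1.32 times that of *TT8*, and in replicate 1 of Ler × Col it was 0.441 times. Only in that last library was *TT8* the more abundant of the pair.

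The 250 bases before the annotated starts of *TT2* and *TT8*, the 2 members with the largest difference between replicates 3 and 2 (given with its test further on), were read from the TAIR10.1 genome, 5′ to 3′ on the gene's strand. Capitals mark the matches to a fixed set of motifs, searched on both strands: the G-box CACGTG and the E-box CANNTG, which bHLH proteins bind and of which the second includes the first, the W-box TTGAC of WRKY proteins, the AC elements ACCTACC and ACCAACC of MYB proteins, and the CArG box of MADS box proteins. The *TT2* window, chr5:13726493-13726742 on the plus strand, holds E-boxes that begin 195 and 123 bases before the start. The *TT8* window, chr4:6181631-6181880 on the plus strand, holds ACCAACC at 114, a W-box on the other strand at 92 and an E-box at 78 bases before the start.
TT2: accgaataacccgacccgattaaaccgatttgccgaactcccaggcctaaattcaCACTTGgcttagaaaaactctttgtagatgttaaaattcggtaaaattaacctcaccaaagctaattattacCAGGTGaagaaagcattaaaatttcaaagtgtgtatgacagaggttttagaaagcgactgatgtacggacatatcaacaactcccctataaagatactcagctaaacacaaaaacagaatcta
TT8: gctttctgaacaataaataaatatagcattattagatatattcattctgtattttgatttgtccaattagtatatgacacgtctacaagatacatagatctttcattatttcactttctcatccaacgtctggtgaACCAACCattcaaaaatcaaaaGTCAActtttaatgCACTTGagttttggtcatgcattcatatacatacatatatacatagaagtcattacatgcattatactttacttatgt
Among windows of the same length before 27443 genes, 55.3% hold an E-box, 44.9% a W-box and 2.69% ACCAACC. These matches describe the letters only, and no measurement of binding was used.

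The 2 regulators of the endothelium stood at opposite ends of the range. *TT1* (chromosome 1, 12763902 to 12765686) had 27.7 and 127 RPKM in Col × Ler (77.4 ± 70.3, SD, n = 2) and 33.4, 15.0 and 65.0 RPKM in Ler × Col (37.8 ± 25.3, SD, n = 3). Ranked among all genes of a library, it lay between the 86.9th and the 97.6th percentile. It alone among the 7 exceeded *PHE1*, which it did in both replicate 3 libraries and in no other.
*TT16* (chromosome 5, 7835965 to 7838555) was listed at 0 in both replicate 2 libraries. It had 2.51 RPKM in replicate 3 of Col × Ler, and 6.76 and 2.30 RPKM in replicates 1 and 3 of Ler × Col. Replicate 1 of Ler × Col was thus its highest library in RPKM, unlike for *TT1*, which was 0.514 times as abundant there as in replicate 3 of the same cross. The 6.76 RPKM of *TT16* there lay below that library's median of 8.96. By percentile rank *TT16* stood lower there (40.5) than in replicate 3 of the same cross (45.3).

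*TTG2*, the WRKY gene, was, like *TT16*, of low level and lowest in RPKM in the replicate 2 libraries. *TTG2* (chromosome 2, 15644811 to 15647076) was listed at 0 and had 3.79 RPKM in Col × Ler and had 7.47, 0.705 and 4.19 RPKM in Ler × Col. It was highest in RPKM in replicate 1 of Ler × Col, and the values of Col × Ler lay on both sides of its value in replicate 2 of Ler × Col. By percentile rank it stood lower in replicate 1 of Ler × Col (43.7) than in replicates 2 (46.8) and 3 (52.6) of that cross. Its window is printed because it is the only 1 of the 7 with a G-box, the form of E-box most often tied to bHLH proteins. The G-box begins 183 bases and a W-box on the other strand 146 bases before the start, at chr2:15644561-15644810 on the plus strand.
TTG2: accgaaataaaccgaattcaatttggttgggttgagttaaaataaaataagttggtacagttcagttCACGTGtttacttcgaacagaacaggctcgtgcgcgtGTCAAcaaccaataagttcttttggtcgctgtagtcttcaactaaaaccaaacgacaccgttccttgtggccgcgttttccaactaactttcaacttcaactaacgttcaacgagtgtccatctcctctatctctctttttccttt
A G-box stands in 6.49% of all windows. Over the 7 windows, an E-box was found in 6 (all but *TT16*), a W-box in 3 (*TT1*, *TT8* and *TTG2*), a G-box in 1 and ACCAACC in 1, and ACCTACC and the CArG box in 0, against 1.16 and 2.52% of all windows.

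*STK* (chromosome 4, 6236375 to 6241281), the ovule identity gene, had 3.56 and 17.9 RPKM in Col × Ler (10.7 ± 10.12, SD, n = 2) and 17.0, 5.47 and 13.5 RPKM in Ler × Col (12.0 ± 5.92, SD, n = 3). Both replicate 2 libraries were again lowest in RPKM, but unlike *TT2*, *TT16* and *TTG2* the gene was above 1 RPKM in every library, as were *TT1* and *TTG1*. By percentile rank *STK* stood highest in replicate 2 of Ler × Col (75.6) and lowest in replicate 2 of Col × Ler (56.4). Added up, the 7 genes came to 48.7 and 205 RPKM in Col × Ler and to 99.1, 36.8 and 134 in Ler × Col. *TT1* made up 57.0 and 62.2% of the sum in Col × Ler and 33.7, 40.9 and 48.3% in Ler × Col. The number of the 7 genes at 1 RPKM or more was 3 and 4 in the replicate 2 libraries and 7 in each of the other 3.

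The crosses differ in which parent is the mother, and with it in the genotype of the seed coat. For all 7 regulators the values of the crosses overlapped, and none was called different between the crosses by limma. It compares each gene on the log2(RPKM + 1) scale with a spread moderated over all genes. In this fit the moderation left next to no weight on a gene's own spread. The width of an interval, and with it p, therefore rests on the spread usual at the gene's mean level. *TT1* had a log2 difference, Col × Ler minus Ler × Col, of 0.87 (95% interval -0.61 to 2.35) and *TTG1* of 0.46 (-1.28 to 2.20). The difference was -0.36 (-2.33 to 1.60) for *STK*, -0.52 (-3.003 to 1.96) for *TT2*, -0.65 (-3.18 to 1.87) for *TT16*, -0.95 (-3.52 to 1.63) for *TTG2* and -0.98 (-3.18 to 1.21) for *TT8*. Every interval includes 0 and reaches beyond 1, a 2-fold difference, in at least 1 direction.
The adjusted p of limma was 1.00 for each of the 7. Over the 25579 genes tested, 1 was called higher (0.00391%) and 1 lower (0.00391%) in Col × Ler at an adjusted p under 0.05, and 266 had an unadjusted p under 0.05, among them 0 of the 7. The crosses did not overlap for 8.09% of the genes tested and for 0 of the 7. The median difference was -0.52 for the 7 and 0.10 for all genes tested. Leaving out replicate 2 of Col × Ler turned *TT2* to 1.44, *TT8* to 0.95, *STK* to 0.66, *TT16* to 0.25 and *TTG2* to 0.18, and leaving out replicate 3 of Col × Ler turned *TT1* to -0.21.

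Set side by side within a number, the crosses were close in replicate 3 and less so in replicate 2. In replicate 3, *TT1* was 0.96 higher in Col × Ler on the log2(RPKM + 1) scale and the other 6 genes differed by between -0.12 and 0.38, where the median of all genes was 0.12. In replicate 2 the differences ran from -1.13 for *TT8* to 0.84 for *TT1*, where the median of all genes was 0.66. *TT1* was thus higher in Col × Ler in both, with 1 library on each side and no test.

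**Figure D2:**
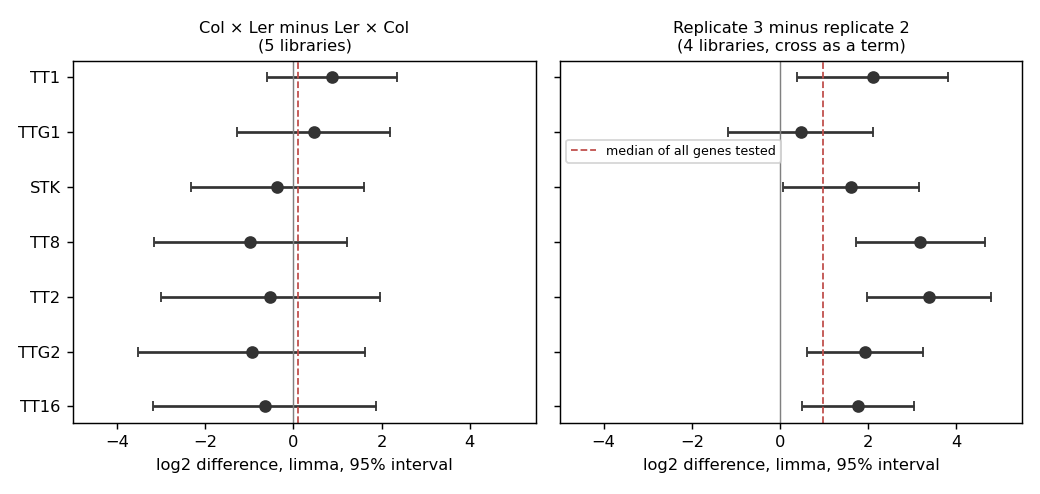
log2 difference of each regulator between the crosses (left) and between replicates 3 and 2 (right), on the log2(RPKM + 1) scale, with 95% intervals of limma as bars and the median of all genes tested as a dashed line. On the left every interval includes 0, and on the right the intervals of 6 genes lie above 0, of which *TT2* and *TT8* lie farthest to the right.

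The libraries numbered 3 exceeded those numbered 2 in RPKM for all 7 regulators in both crosses, of which *TTG1* alone turned below 0 under other scalings, a split by label number that is no condition of the study. On the log2(RPKM + 1) scale the difference was 3.92 in Col × Ler and 2.84 in Ler × Col for *TT2*, and 3.86 and 2.51 for *TT8*. It was 2.26 and 1.61 for *TTG2*, 2.16 and 2.04 for *TT1*, 2.05 and 1.17 for *STK*, 1.81 and 1.72 for *TT16* and 0.25 and 0.68 for *TTG1*. Most genes moved the same way: the median over all genes was 0.73 and 1.26, and both replicate 3 libraries lay above both replicate 2 libraries for 63.0% of the 25579 genes as for 7 of the 7 regulators. *TTG1* was below the median of all genes in both crosses and *STK* in Ler × Col alone. As ratios of RPKM, *TT1* was 4.58 and 4.32 times as abundant in replicate 3 as in replicate 2, *STK* 5.02 and 2.47 times and *TTG1* 1.20 and 1.65 times. *TT2* (13.9 times) and *TTG2* (5.94 times) have a ratio in Ler × Col alone and *TT16* has none, since their replicate 2 libraries were listed at 0.

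In a limma fit of these 4 libraries with the cross as a term, *TT2* and *TT8* were called higher in replicate 3. The log2 difference was 3.38 (SE 0.72) for *TT2*, with an adjusted p of 0.00065 by limma, and 3.19 (SE 0.75) for *TT8*, with an adjusted p of 0.00242. The other 5 did not pass: *TT1* had 2.098 (adjusted p = 0.119), *TTG2* 1.93 (0.0592), *TT16* 1.77 (0.0766), *STK* 1.61 (0.185) and *TTG1* 0.47 (0.678). The same fit called 5.79% of all genes tested higher and 0.227% lower in replicate 3, against 2 and 0 of the 7 regulators. The median was 1.93 for the 7 and 0.98 for all genes tested.
The fit has 1 residual degree of freedom, and its calls depend on the setting. As in the fit of the crosses, its SE and p rest on the spread usual at a gene's mean level, with next to no weight on the gene's own. Without the cross as a term the adjusted p rose to 0.127 for *TT2* and *TT8*, and with all genes tested to 0.219. In both these fits, as after quantile normalization, a gene's own spread has weight again, so more than the named setting differs. After quantile normalization it was 0.135 for *TT2* and 0.178 for *TT8*, and with libraries scaled to their endosperm markers 0.0373 for *TT2* and 0.0803 for *TT8*. Fits that left out 1 library had to drop the cross as a term and kept a single library of 1 number, so only their differences are given here. Without replicate 3 of Col × Ler the difference was 3.30 for *TT2* and 3.08 for *TT8*, and without that of Ler × Col 3.45 and 3.29. *TT16* had 1.72 and 1.81 in these fits. Their spread rests on the replicate 2 libraries, where *TT16* was listed at 0 in both, so they cannot test it. Without replicate 2 of Col × Ler the difference was 2.91 for *TT2* and 2.62 for *TT8*, and without that of Ler × Col 3.85 and 3.75. *TTG1* was called under none of the alternatives. Quantile normalization and endosperm scaling moved the whole distribution, with 192 genes called higher and 316 lower after quantile normalization and 143 and 182 with endosperm scaling, against 1480 and 58. They brought the median of all genes from 0.98 to 0.01 and 0.11, and *TTG1*, which lay below that median before, to -0.46 and -0.40.

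Gene lists of the same pathway were read in the same fits. Between the crosses 0 genes of any of the 5 lists were called in either direction by limma, with 0 at an unadjusted p under 0.05. Over all 25579 genes tested 1 was called higher and 1 lower, and 266 had an unadjusted p under 0.05. The proanthocyanidin genes that the MBW complex switches on had the largest median difference of the 5 lists between the numbers. Of 6 such genes, all tested, 3 were called higher in replicate 3 and 0 lower, beside 5.79% of all genes called higher, with a median difference of 2.44 beside 0.98 for all genes: *LDOX* (3.41, adjusted p = 0.00476) and *DFR* (2.41, 0.0452), which act in flavonoid reduction and oxidation, and *BAN* (3.15, 0.00584), the anthocyanidin reductase that opens the proanthocyanidin branch. *GSTF12*, a glutathione transferase needed for flavonoid transport, was the most abundant, with 29.9 and 74.8 RPKM in Col × Ler and 63.7, 7.35 and 104 in Ler × Col. *AHA10*, a proton pump of the endothelium, was the least abundant, with 0.252 and 3.07 RPKM in Col × Ler and 6.51, 0.415 and 2.62 in Ler × Col. Both genes were lowest in the replicate 2 library of each cross. All calls named from these lists end without the filter on low values and without the cross as a term, where 0 genes of the whole table were called (7122 and 7156 at an unadjusted p under 0.05).

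Partners and relatives of the MBW complex were less abundant. Of 14 genes 9 were tested, 3 were called higher in replicate 3 and 0 lower, beside 5.79% of all genes called higher, and their median difference was 1.35 beside 0.98. The called genes were *CPC* (2.68, adjusted p = 0.00771 by limma) and *MYBL2* (2.45, 0.0294), both single-repeat MYB inhibitors of the complex, and *EGL3* (2.42, 0.0237), a bHLH relative of *TT8*. *MYB5*, a MYB partner that overlaps with *TT2* in the seed coat, was the most abundant, at 11.7 and 14.8 RPKM in Col × Ler and 45.4, 1.83 and 19.9993 in Ler × Col. *EGL3* had 0.102 and 7.06 RPKM in Col × Ler and 24.3, 2.74 and 13.6 in Ler × Col, an order of libraries close to that of *TT8*. *GL1*, the trichome MYB gene, was the least abundant, at 0 in 3 of the 5 libraries and at most 0.911 RPKM.

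The relatives of the endothelium genes and of *STK* showed 0 calls in the comparison of numbers by limma, beside 5.79% of all genes called higher and 0.227% lower. Of the 5 WIP zinc finger relatives of *TT1*, 3 were tested and none had an unadjusted p under 0.05 (median 0.77), and none reached the level of *TT1*: *WIP6* led with a mean of 4.06 RPKM, before *WIP2* (3.48) and *WIP3* (2.52), and *WIP5* came last at 0.939. These relatives were highest in replicate 1 of Ler × Col, where the 5 genes summed to 47.3 RPKM, against 0.722 to 6.61 in the other libraries. The median over all genes was also highest in that library, at 8.96 RPKM. Of 10 MADS box genes of flower and ovule, all tested, 6 had an unadjusted p under 0.05 (median 1.62), as had 6401 of the 25579 genes tested (median 0.98). *SEP3*, a floral partner of MADS box proteins, had the highest mean at 36.2 RPKM, *SHP1* and *SHP2*, which share ovule identity with *STK*, had 28.5 and 15.9, and *AG*, the carpel identity gene, had 1.75. *SHP1* had 13.01 and 57.8 RPKM in Col × Ler and 35.0, 4.63 and 32.1 in Ler × Col. *PI*, the gene mutated in the Ler mothers, had 0.146 and 2.78 RPKM in Col × Ler and 8.68, 0.809 and 1.47 in Ler × Col.

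Genes of the seed coat epidermis, the outer layer that makes mucilage, did not move as a block. Of 7 genes, all tested, 1 was called higher in replicate 3 and 0 lower, beside 5.79% of all genes called higher and 0.227% lower. It was *MYB61* (2.71, adjusted p = 0.00672 by limma), a MYB gene of mucilage deposition. The median was 1.35 beside 0.98 for all genes. *LUH*, a corepressor needed for mucilage release, had 117 and 58.2 RPKM in Col × Ler and 51.3, 71.9 and 60.3 in Ler × Col. *RHM2*, which makes the rhamnose of mucilage, had 76.2 and 47.4 RPKM in Col × Ler and 66.5, 120 and 38.4 in Ler × Col. Both these genes lay lower in replicate 3 than in replicate 2 in each cross, against the direction of the 7 regulators. *GL2*, an epidermal homeobox gene downstream of the MBW complex, had a mean of 23.2 RPKM, and *KNAT7*, the least abundant, had 4.12.

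**Figure D3:**
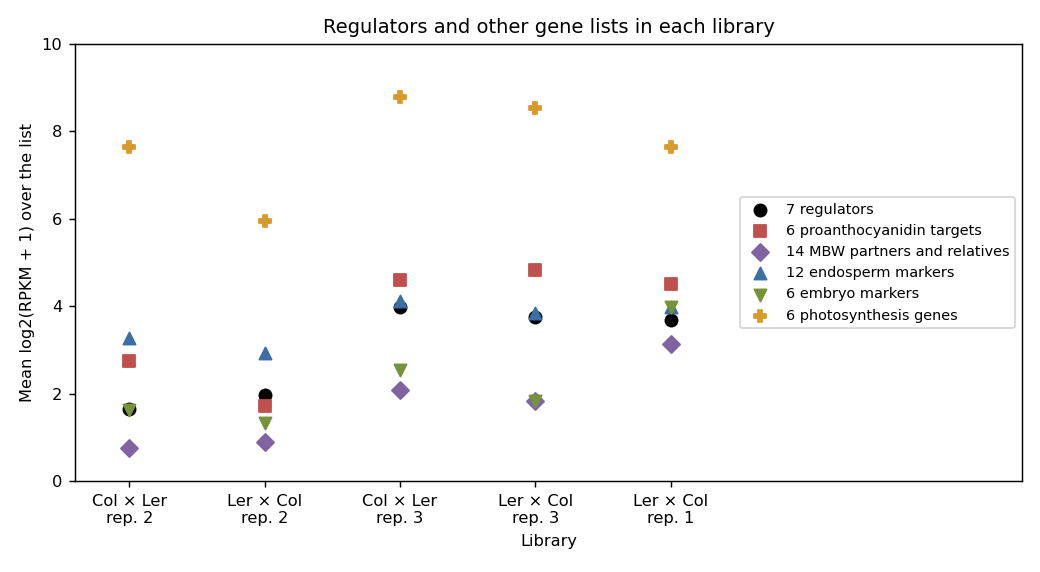
Mean log2(RPKM + 1) of the 7 regulators and of 5 other gene lists in each library, with the 2 replicate 2 libraries at the left. The regulators stand at 1.66 and 1.96 there and between 3.68 and 3.99 in the other 3 libraries. Each of the 5 other lists is also lowest in a replicate 2 library, the endosperm markers by a smaller step than the regulators.

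The markers of other tissues moved with the numbers too. From replicate 2 to 3 the 12 seed coat markers, as a mean on the log2(RPKM + 1) scale, went from 2.67 to 3.85 in Col × Ler and from 1.83 to 3.63 in Ler × Col. The median difference over all genes was 0.73 and 1.26. These 12 markers include all 6 proanthocyanidin genes given above. By limma the rest differed by -1.15 (*RHM2*), 0.13 (*TT10*), 0.61 (*KAN4*), 0.79 (*INO*), 1.21 (*CYP78A5*) and 1.35 (*MUM2*), beside a median of 0.98 over all genes. The photosynthesis genes went from 7.64 to 8.79 and from 5.96 to 8.54, the embryo markers from 1.63 to 2.55 and from 1.34 to 1.84, and the endosperm markers from 3.27 to 4.11 and from 2.94 to 3.85. Among the endosperm markers *ZOU*, the bHLH gene of endosperm breakdown, went the other way, with 532 and 190 RPKM in Col × Ler and 386, 777 and 291 in Ler × Col. With *ZOU* the summed RPKM of the list was lower in replicate 3, and without it the other 11 markers went from 140 to 205 in Col × Ler and from 103 to 179 in Ler × Col. The part of tissue makeup, depth and genes listed at 0 in the difference between the numbers was not tested.

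Replicate 1 of Ler × Col, made from more siliques and set aside for contamination in the methods of the paper, detected the most genes and differed from replicate 3 in the proportions of the 7 regulators. Against replicate 3 of the same cross, *TT16* had 2.93 times the RPKM, *TTG2* 1.79 times, *TT8* and *STK* 1.26 times each, *TT1* 0.514 times, *TT2* 0.448 times and *TTG1* 0.421 times. On the log2(RPKM + 1) scale the median difference between these libraries was 0.32 over all 25579 genes and 0.31 for the 7 regulators. *TT8* and *STK* lay at that median (0.31 each) and *TT2* below it (-1.03). By percentile rank *TT16* and *TTG2* stood lower in replicate 1 (40.5 and 43.7) than in replicate 3 (45.3 and 52.6). The part of other tissues in this library was not tested. A single library stands on each side, so the difference has no replicate check.

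Likeness between genes was measured as the root mean square distance between their profiles of log2(RPKM + 1) over the 5 libraries, each centred on its own mean, and it is a description over libraries that also differ in depth. The closest of the 7 were *TT16* and *TTG2* (0.295), *TTG2* and *STK* (0.395), *TT16* and *STK* (0.499) and *TT2* and *TT8* (0.4996). *TTG1* was far from its partners in the complex, at 1.702 from *TT8* and 1.49 from *TT2*. *TT1* lay nearest to *STK* (0.73) and to *TTG1* (0.83).

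**Figure D4:**
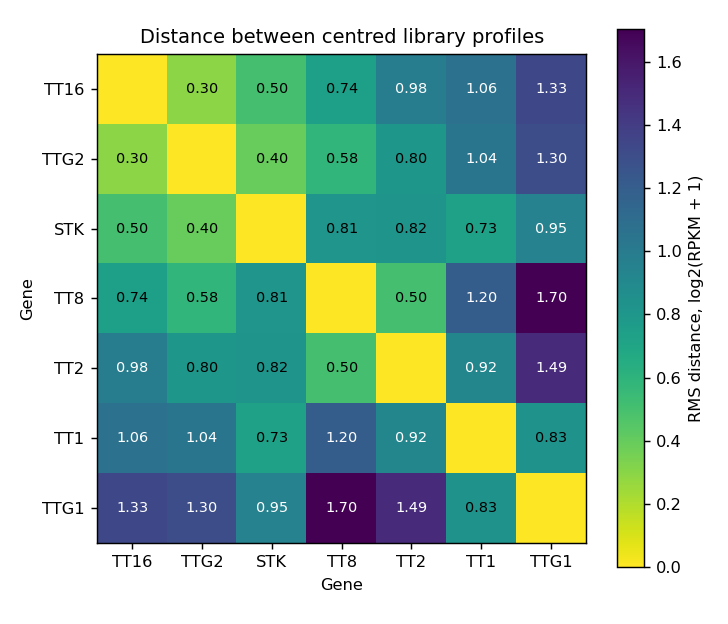
Root mean square distance between the centred log2(RPKM + 1) profiles of each pair of regulators over 5 libraries, light for near and dark for far. *TT16*, *TTG2* and *STK* form a block of small distances, and the largest value is the 1.702 between *TT8* and *TTG1*.

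Among 16330 other genes with a mean of at least 5 RPKM, the number within a distance of 0.25 was 378 for *TTG1*, 125 for *STK*, 85 for *TT16*, 47 for *TTG2*, 42 for *TT1*, 13 for *TT8* and 9 for *TT2*. The profile of *TT2* was thus matched by the fewest genes and that of *TTG1* by the most. The distance is not scaled to how widely a gene ranged over the libraries, so these counts depend on that range as well as on shape. The 2 nearest genes were *STH* (0.0507) and *emb1379* (0.0871) for *STK*, AT4G13110 (0.0644) and AT2G36240 (0.0659) for *TTG1*, and AT5G40150 (0.0834) and *MKK5* (0.0921), a MAP kinase kinase, for *TT16*. For *TTG2* they were AT3G48540 (0.0861) and *PAL1* (0.0955), the phenylalanine ammonia-lyase at the entry to phenylpropanoid synthesis. For *TT2* they were AT5G53610 (0.0947) and AT1G15757 (0.143), for *TT1* AT3G21610 (0.114) and *TLP6* (0.126), and for *TT8* AT2G26450 (0.121) and AT4G33830 (0.149).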

How the data were processed

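RNA of INTACT-purified nuclei was sequenced in 5 libraries, from siliques of Col × Ler (2) and Ler × Col (3). The authors deposited a table of RPKM values with both parental alleles added together and replicates kept apart. The submitters' processing notes name TopHat2 2.1 and TAIR10. No read counts were used. Libraries are numbered as in the names of the columns, all of which were assigned to a sample.

 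Identifiers were matched to the TAIR10.1 annotation of RefSeq (32835 matched), which also gave the coordinates and the promoter windows. The 25579 genes that reached 1 RPKM in 2 or more libraries entered a limma fit (version 3.58.1, R 4.3.3) of log2(RPKM + 1), with the variance following the mean. A gene was called at a Benjamini-Hochberg adjusted p under 0.05. A fold change on this scale understates that of low genes. On simulated data both fits missed most of the changed genes. The simulated spread came from a fit of all genes without the filter, so the share missed does not carry over to the reported fits. A gene that was not called may still differ.

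The 7 regulators and the gene lists were chosen with earlier results of these data known. The text names all 7, the 3 genes with the highest and the 1 with the lowest mean RPKM of each pathway list, genes called, *PHE1*, and the 2 genes nearest in profile to each regulator. Other genes (*PI*, *ZOU*, *WOX8*, and markers at 0) were named after their values were seen, and 1 list gene whose identifier did not carry its name was left out. All 5 libraries were kept. Alternatives were other pseudocounts, filters and scalings, no variance trend, replicate blocks and leaving out each library. Python 3.11.15, pandas 2.3.3, NumPy 2.4.6 and matplotlib 3.10.9 were used.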

Additional observations from a re-analysis of the deposited data

How the results depend on the processing

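Between the crosses, the 2 genes called became 7 with a pseudocount of 0.1, 6 with 0.5, 6 without a filter, 0 after quantile normalization, 12 with endosperm marker scaling and 0 without a variance trend. A replicate block gave 86 calls, and 76 without replicate 1 of Ler × Col, a setting chosen after the data were seen. Leaving out each library gave 0 to 86. With the block, *TT16* had a log2 difference of 0.043, with or without replicate 1, and with a block by the title numbers *TT2* had 0.12. Leaving out each library gave -0.21 to 1.95 for *TT1*, -2.48 to 1.44 for *TT2*, -2.91 to 0.95 for *TT8*, -1.56 to 0.25 for *TT16*, -2.08 to 0.18 for *TTG2* and -1.39 to 0.66 for *STK*. None of the 7 regulators was called under any of these settings. The differences between replicates 3 and 2 of the same cross correlated between the crosses across 25579 genes (r = 0.29, genes not being independent replicates), but with 2 such pairs the libraries are taken to share only a number.

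Between replicates 3 and 2, the 1538 genes called became 0 without a filter, 572 with a stricter filter, 508 after quantile normalization, 325 with endosperm marker scaling, 2649 without a variance trend and 0 without the cross as a term. Leaving out each library gave 2807 to 14422, in fits without the cross as a term, since 3 libraries leave it no residual degree of freedom, and the lone library is assumed to vary like the others. *TTG1* had -0.46 after quantile normalization and -0.40 with endosperm marker scaling. Over the 7 regulators and these alternatives 2 values turned, both of *TTG1*. The calls of *TT2* and *TT8* ended without a filter, after quantile normalization and without the cross as a term. That of *TT8* also ended with endosperm marker scaling. *TT1* and *TTG2* gained a call without a variance trend. Changes of call on leaving out a library are not given, since 1 number then had a single library. The cause of the difference between the numbers was not tested. At the estimated depth of replicate 2 of Col × Ler, 3 reads come to 0.209 RPKM for *TT2*, 0.177 for *TT16* and 0.123 for *TTG2*. Replicate 3 of that cross had 67.8, 14.2 and 30.8 times these values. *TT16* was also listed at 0 in replicate 2 of Ler × Col. The part of depth in these zeros was not tested.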
